A study of Mus musculus with 2 samples.

Results

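Adenylyl cyclases are the enzymes that make cyclic AMP from ATP, and the 9 genes Adcy1 to Adcy9 encode the forms that sit in the membrane and answer to G proteins. The 9 genes were taken by symbol, and each symbol was linked to its gene identifier through the names in the deposited transcript tables. All 9 were found among 55536 annotated genes. Adcy10, which encodes the soluble cyclase, was not a member and is given with the genes that act on the enzymes.

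Total RNA, depleted of ribosomal RNA, had been sequenced from the adrenal gland of male mice aged 25 days. The mice were B6CASTF1/J, the first-generation cross of a C57BL/6J with a CAST/EiJ parent, with no further allele or treatment named in the labels. There was 1 group of 2 libraries, each from 300 ng of RNA, so no condition is compared and the values are levels and the spread between libraries. By the tissue labels, replicate 1 came from animal 3 and replicate 2 from animal 4, but the library labels give 3 for both and the donor label is shared, so the spread may be technical.

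In the adrenal cortex, the pituitary hormone ACTH acts through its receptor and the stimulatory G protein to switch on adenylyl cyclase, and cyclic AMP then drives steroid production. The membrane cyclases share a pair of catalytic domains and are all stimulated by the Gs alpha subunit, but differ in what else acts on them. By their usual grouping, the products of Adcy1, Adcy3 and Adcy8 are stimulated by calcium and calmodulin, those of Adcy2, Adcy4 and Adcy7 by G protein beta-gamma subunits together with Gs, those of Adcy5 and Adcy6 are inhibited by calcium and by Gi, and that of Adcy9 responds little to the plant compound forskolin. The data are RNA levels, and enzyme activity was not measured.

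The genes are alike enough in sequence that reads could in principle be shared between them, so their coding sequences were compared first. The 57 bases given here, from the GENCODE M21 transcripts (mm10), lie around the codon of the first metal-binding aspartate of the first catalytic domain, a part every member needs for catalysis. Capitals mark the 20 positions with the same base in all 9 genes.
Adcy1: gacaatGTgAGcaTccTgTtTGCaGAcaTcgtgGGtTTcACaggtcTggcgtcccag
Adcy3: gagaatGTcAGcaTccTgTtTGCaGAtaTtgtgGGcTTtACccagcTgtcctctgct
Adcy8: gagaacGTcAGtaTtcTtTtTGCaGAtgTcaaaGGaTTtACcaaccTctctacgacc
Adcy2: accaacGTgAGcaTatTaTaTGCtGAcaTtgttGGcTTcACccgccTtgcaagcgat
Adcy4: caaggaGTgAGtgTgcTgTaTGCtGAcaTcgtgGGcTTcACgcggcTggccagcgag
Adcy7: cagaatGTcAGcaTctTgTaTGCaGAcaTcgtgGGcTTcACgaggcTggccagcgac
Adcy5: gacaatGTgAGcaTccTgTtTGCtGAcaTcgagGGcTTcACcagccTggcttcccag
Adcy6: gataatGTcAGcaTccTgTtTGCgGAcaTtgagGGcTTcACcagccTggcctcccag
Adcy9: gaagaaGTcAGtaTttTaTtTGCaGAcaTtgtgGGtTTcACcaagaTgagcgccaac

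Even in this stretch the genes could be told apart. Adcy5 and Adcy6, the closest pair, shared 52 of the 57 bases, and their coding sequences were 74.4% identical. Over the 36 pairs, coding identity ran from 61.2% to 74.4%, with a median of 63.7%. The longest run of identical bases in a pair was between 12 and 33 bases. In the deposited tables the posterior SD of the count, which is above 0 where a gene shares reads with another, was 0 for all 9 genes in both libraries. In 8 genes the window crossed an exon junction, and in Adcy9 it lay within 1 exon (chr16:4418319-4418375, minus strand).

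Levels between genes were compared in TPM, the relative number of transcripts after correction for transcript length. Adcy6, Adcy9 and Adcy3 led, and 6 of the 9 genes reached 1 TPM in each library. That level was reached by 54.1% of nuclear protein-coding genes and 23.6% of all annotated genes. The 9 genes summed to 62.95 TPM in replicate 1 and 49.94 in replicate 2, a mean of 56.4 ± 9.20 (SD, n = 2). In bulk tissue, fewer cells of a type and less RNA per cell cannot be told apart.

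Of the calcium- and Gi-inhibited pair, Adcy6 (ENSMUSG00000022994.9, chr15:98589973-98610076, minus strand) was read at 24.2 TPM in replicate 1 and 19.05 in replicate 2, from 3002 and 2419 expected counts. Its mean of 21.6 ± 3.64 TPM was higher than that of 85.4% of nuclear protein-coding genes. Adcy5 (ENSMUSG00000022840.9, chr16:35154877-35305738, plus strand) was at 2.34 and 2.21 TPM, from 450 and 465 counts. The pair held 42.4% ± 0.290 of the summed TPM of the 9 genes (SD, n = 2), most of it from Adcy6 with 38.3% ± 0.210. These shares depended on which transcripts were counted. Over complete protein-coding transcripts alone, the pair held 30.4% ± 0.328 and Adcy6 25.7% ± 0.581 (SD, n = 2).

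Adcy9 (ENSMUSG00000005580.11, chr16:4287529-4420498, minus strand), the form least sensitive to forskolin, was at 15.83 and 13.36 TPM from 2481 and 2076 counts. It held 25.9% ± 1.14 of the family (SD, n = 2), and its level was above that of 78.3% of nuclear protein-coding genes. Over complete protein-coding transcripts alone, its share was 35.5% ± 1.52 (SD, n = 2).

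Among the calcium- and calmodulin-stimulated genes, Adcy3 (ENSMUSG00000020654.15, chr12:4133103-4213525, plus strand), best known from the cilia of olfactory neurons, was at 12.12 TPM in replicate 1 and 7.24 in replicate 2, from 1615 and 1039 counts. Of the 3 leading genes it differed most between the libraries, and its share of the family was 19.3% in replicate 1 and 14.5% in replicate 2. Adcy1 (ENSMUSG00000020431.5, chr11:7063489-7178506, plus strand), known mainly from neurons, was at 1.18 and 0.84 TPM, from 489 and 345 counts. Adcy8 (ENSMUSG00000022376.8, chr15:64697084-64922296, minus strand), another mainly neuronal form, had 10 and 2 counts, or 0.06 and 0.01 TPM. The group held 18.7% ± 3.55 of the family TPM (SD, n = 2), and Adcy3 accounted for nearly all of it.

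Adcy3 shares sequence with a neighbour on the other strand. Exons of Cenpo, which encodes a centromere protein, overlap those of Adcy3 over 1380 bases, and Cenpo had 203 and 168 counts (2.61 and 2.24 TPM). The library kit keeps the strand of the RNA, per the labels, but whether counting used it is not given in the sources used here. The posterior SD of the Cenpo count was 0 in both libraries, as it was for Adcy3. For Adcy6 the annotated antisense gene Gm29331 overlaps 605 exonic bases and had 0 counts in both libraries.

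The beta-gamma-stimulated genes all lay below the 3 leading genes. Adcy4 (ENSMUSG00000022220.14, chr14:55769057-55784095, minus strand) was at 4.35 and 3.93 TPM, from 461 and 293 counts. Adcy7 (ENSMUSG00000031659.13, chr8:88272403-88329962, plus strand), a form known from blood and immune cells, was at 2.45 and 3.14 TPM, from 474 and 558 counts. Adcy2 (ENSMUSG00000021536.7, chr13:68620043-68999541, minus strand) was at 0.42 and 0.16 TPM, from 59 and 22 counts. As a group they held 13.0% ± 2.13 of the family (SD, n = 2), with Adcy4 and Adcy2 higher in replicate 1 and Adcy7 in replicate 2. Their sums of 7.22 and 7.23 TPM were nearly equal, but over complete coding transcripts they were 6.37 and 5.33, and in the second quantification 11.46 and 9.43, lower in replicate 2.

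**Figure D1:**
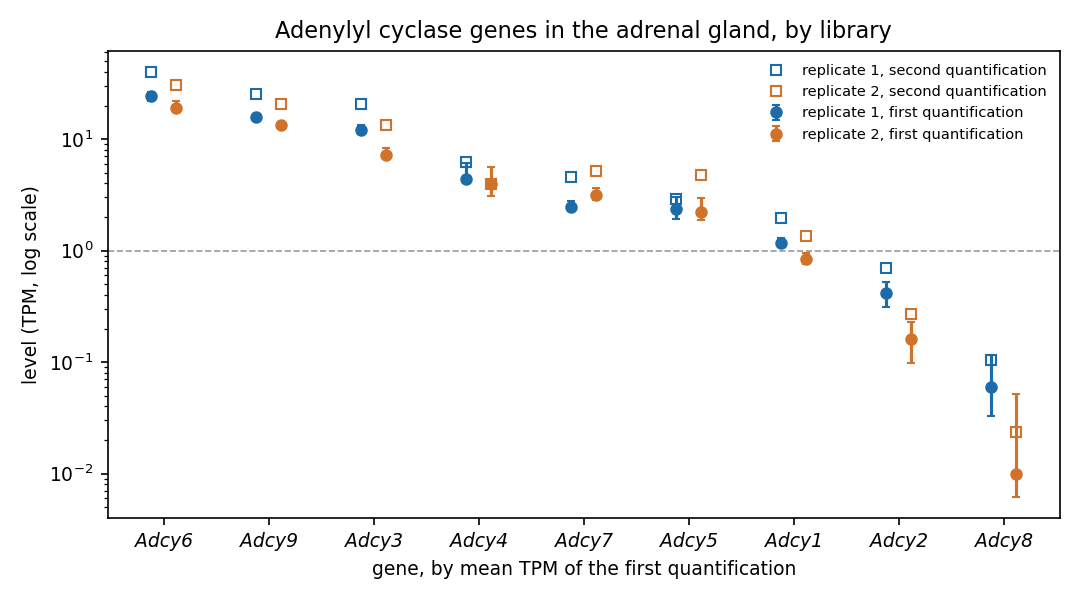
TPM of each cyclase gene (vertical axis, log scale) in replicate 1 (blue) and replicate 2 (orange). Filled circles are the first quantification with its deposited credibility interval, open squares the second, and the dashed line is 1 TPM: Adcy6 to Adcy5 lie above it in both libraries, while Adcy2 and Adcy8 lie below it.

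By mean TPM the order was Adcy6, Adcy9, Adcy3, Adcy4, Adcy7, Adcy5, Adcy1, Adcy2 and Adcy8. In the first quantification the ranges of neighbouring genes did not overlap, but a range over 2 libraries is a narrow measure of spread. A second set of deposited values, made from the same reads by another quantification, gave the same first 3 genes. There Adcy9 read 25.3 and 20.5 TPM and Adcy3 read 20.7 and 13.4, so their ranges overlapped. Over complete coding transcripts alone, Adcy3 read 13.7 and 8.53 there and Adcy9 was unchanged, so these ranges were apart. Over all transcripts, Adcy4 at 6.18 and 3.94 TPM, Adcy7 at 4.59 and 5.22, and Adcy5 at 2.92 and 4.79 also overlapped. Adcy4 was the lowest of these in replicate 2. The place of Adcy4 beside Adcy7 and Adcy5 was therefore not settled by these libraries. Adcy7 read above Adcy5 in each library of both quantifications, though their credibility intervals in the first overlapped. Over complete coding transcripts in the second quantification, Adcy7 read 4.05 and 4.48 TPM and Adcy5 read 2.92 and 2.96, so these ranges were apart. Adcy1, Adcy2 and Adcy8 came last in that order in both quantifications and both libraries.

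The lead of Adcy6 over Adcy9 depended on which transcripts were counted. Over all transcripts, Adcy6 exceeded Adcy9 by 0.56 ± 0.07 on the log2 TPM scale (SD, n = 2), and by 0.62 ± 0.06 in the second quantification. Counting complete protein-coding transcripts alone, Adcy6 was at 11.99 and 9.22 TPM and Adcy9 at 15.84 and 13.36, and the order turned, with a log2 difference of -0.47 ± 0.09. In the second quantification the same restriction left Adcy6 at 24.8 and 17.99 TPM against 25.3 and 20.5 for Adcy9. With gene counts divided by the length of each gene's longest coding transcript, Adcy6 had 14.2 and 11.5 counts per kb, scaled to library size, and Adcy9 had 14.3 and 12.0. These 3 ways of counting were chosen after the values had been seen, as was a limit of 1000 bases on transcript length.

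**Figure D2:**
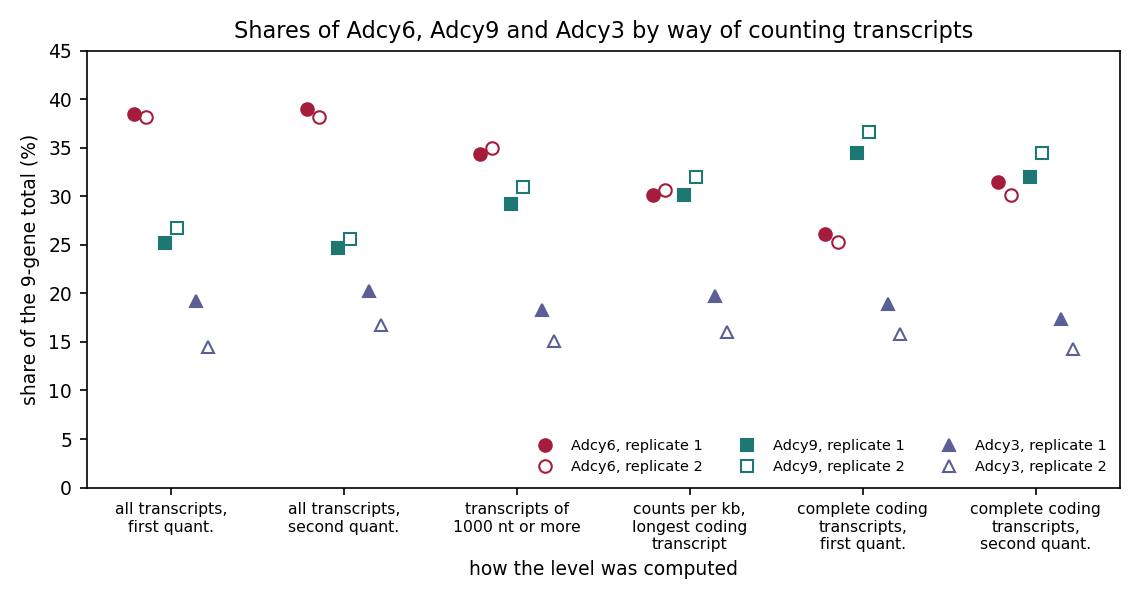
Percent of the 9-gene total (vertical axis) held by Adcy6 (red circles), Adcy9 (green squares) and Adcy3 (purple triangles) in replicate 1 (filled) and replicate 2 (open), for 6 ways of computing a level. Adcy6 is highest over all transcripts, lies beside Adcy9 per kb of the longest coding transcript, and is below Adcy9 over complete coding transcripts.

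Part of this gap was a few reads on short transcript models. Adcy6-204, a coding fragment of 612 bases annotated as incomplete, received 97.7 of 3002 counts in replicate 1 and 65.46 of 2419 in replicate 2. Division by its short length gave it 23.03% and 19.75% of the TPM of Adcy6. The second quantification placed 0 counts on that fragment, but 35 and 26 counts on Adcy6-203, another fragment of 425 bases, which became 11.1 and 8.08 TPM. A retained-intron transcript, Adcy6-202, held a further 25.45% and 25.49% of the gene's TPM in the first quantification and 10.02% and 10.5% in the second. Restricting to transcripts of at least 1000 bases put Adcy6 at 18.63 and 15.09 TPM, with a log2 difference from Adcy9 of 0.20 ± 0.04 and overlapping ranges. All 3 annotated transcripts of Adcy9 are complete and coding, so none of these restrictions removed any of its counts.

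Short models moved Adcy3, Adcy4 and Adcy5 too. In replicate 2, transcripts of Adcy4 under 1000 bases held 5.68% of its counts and 38.8% of its TPM, against 1.497% and 11.5% in replicate 1. Over complete coding transcripts Adcy4 was at 3.57 and 2.40 TPM, a wider gap between the libraries than its gene TPM shows. For Adcy5, 4.23 and 2.21 counts on the retained-intron transcript Adcy5-202, of 374 bases, were worth 19.2% and 10.7% of its TPM. In the second quantification that transcript had 0 and 4.57 counts, worth 0% and 38.1%, so the library it raised more was the other one. Adcy8 had 7.54 and 2 of its counts on the retained-intron transcript Adcy8-203, and the coding transcripts held 2.46 counts in replicate 1 and 0 in replicate 2. The second quantification put 9.13 and 0 counts on Adcy8-203, and 1.88 and 4 on the coding transcript Adcy8-202. The split of Adcy8 was therefore not settled. Transcripts of Adcy3 under 1000 bases held 17.9% and 10.2% of its TPM, and 24.2% and 27.3% in the second quantification. They held at most 1.79% of its counts in either.

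**Figure D3:**
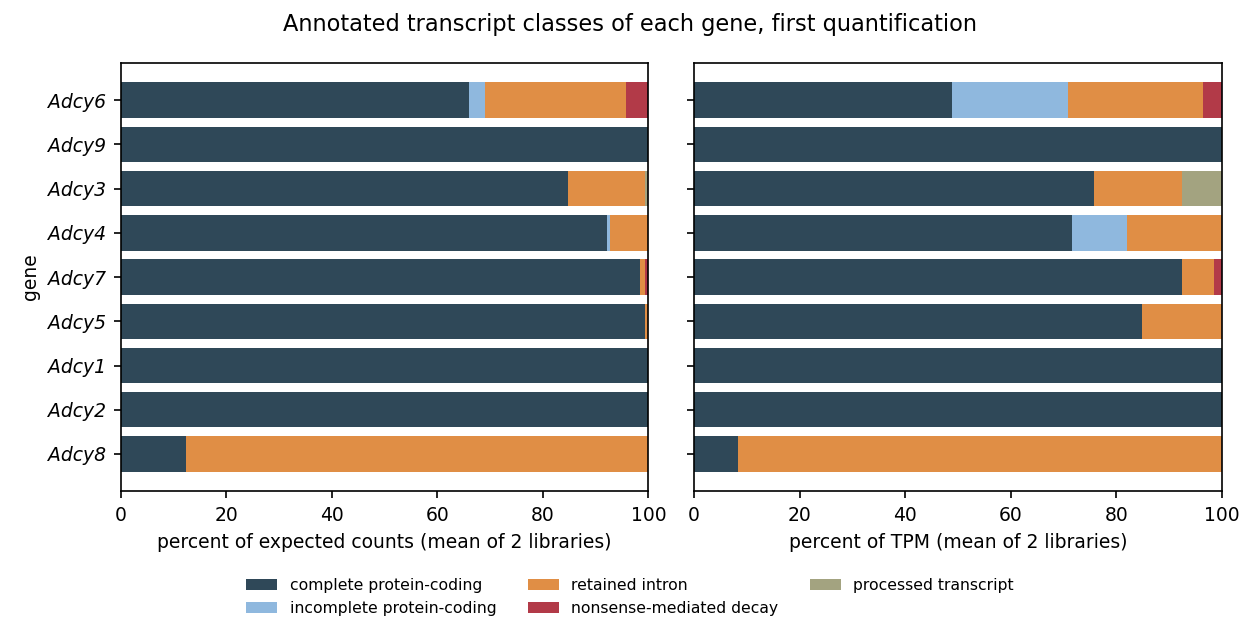
For each gene (rows), the percent of its expected counts (left) and of its TPM (right) by annotated transcript class, as the mean of both libraries. The values are of the first quantification. Adcy6 and Adcy4 have a far larger share of TPM than of counts on incomplete coding transcripts, for Adcy4 from 4.34 counts in replicate 2 alone. Adcy9, Adcy1 and Adcy2 lie wholly on complete coding transcripts. Adcy8, with few counts, lies mostly on a retained-intron transcript, which in replicate 2 was not repeated in the second quantification.

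Adcy6, Adcy9 and Adcy3 each had annotated complete coding forms with and without a short stretch, given here in capitals with the transcript sequence on either side in lower case. The 6 bases of Adcy6 (chr15:98600172-98600177, minus strand), the 223 bases of Adcy9 (chr16:4418973-4419195, minus strand) and the 3 bases of Adcy3 (chr12:4208577-4208579, plus strand) are exonic and coding in the form that has them.
Adcy6: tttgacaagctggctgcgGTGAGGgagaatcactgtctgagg
Adcy9: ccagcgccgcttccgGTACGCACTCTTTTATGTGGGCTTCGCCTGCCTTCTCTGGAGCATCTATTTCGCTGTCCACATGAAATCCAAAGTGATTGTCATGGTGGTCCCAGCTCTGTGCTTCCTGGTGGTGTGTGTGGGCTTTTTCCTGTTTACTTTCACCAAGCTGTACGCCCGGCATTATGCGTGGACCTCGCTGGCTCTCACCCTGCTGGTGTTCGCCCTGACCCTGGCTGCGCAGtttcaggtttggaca
Adcy3: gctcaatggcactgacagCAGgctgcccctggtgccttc

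Forms with and without each stretch were both read in both libraries. For Adcy9, transcripts that keep the 223 bases, with an annotated coding sequence of 4059 bases, held 61.6% and 63.0% of the TPM. Adcy9-203, which lacks them and has an annotated coding sequence of 3348 bases, held 38.4% and 37.0%. In the second quantification the form without held 44.8% and 43.5%, so the longer form led in all 4 values. Of the coding TPM of Adcy6, the form with the 6 bases, Adcy6-201, held 57.0% and 60.3% in the first quantification and 67.7% and 70.6% in the second. Forms of Adcy3 with the 3 bases held 39.1% and 36.3%, and in the second quantification 45.9% and 32.9%, so the form without them was the larger in each. The forms of these genes also differ elsewhere in their annotated transcripts, so these shares do not rest on the printed stretch alone.

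Finer splits did not repeat. Adcy9-201 lies wholly within Adcy9-202, and the first quantification put 0 counts on Adcy9-201 while the second put 1434 and 1223 there. The Adcy7 transcripts that encode the same 3297 bases exchanged places between libraries: Adcy7-204 held 60.85% of the TPM in replicate 1 and 0% in replicate 2, where Adcy7-201 and Adcy7-202 held 39.97% and 41.96%. Such transcripts were not treated as separate results.

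Differences between the libraries are given as the log2 ratio of replicate 2 to replicate 1 of counts scaled by TMM, a trimmed mean of ratios over genes. There is 1 library on each side, so the ratio compares these libraries, no p-value was computed, and the 95% exact intervals cover counting error only. Adcy2 and Adcy8 were at least 2-fold lower in replicate 2, making 2 of 9 genes past that fold, against 14.2% of 19801 genes with at least 10 counts in either direction and 3.93% in this direction. Adcy2, with 59 and 22 counts, had a ratio of -1.18 (-1.96 to -0.46). Adcy8, with 10 and 2 counts, had a ratio of -2.08 (-5.31 to 0.15), an interval that includes 0.

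The leading pair hardly moved on that scale. Adcy6 had a ratio of -0.07 (-0.15 to 0.00) and Adcy9 of -0.02 (-0.10 to 0.07). Adcy3 had a ratio of -0.40 (-0.51 to -0.28), Adcy4 of -0.42 (-0.63 to -0.20) and Adcy1 of -0.26 (-0.47 to -0.06), all lower in replicate 2. The ratio of Adcy7 was 0.47 (0.29 to 0.65) and that of Adcy5 was 0.29 (0.10 to 0.48), the only members above 0. The median of the 9 was -0.26, and that of all genes tested was -0.01.

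The scaling bears on these directions. With total counts the median of all genes was -0.24 and with spike-in totals -0.37, and every member shifted with it. Adcy5 was then at 0.05 and -0.07, so its direction is not settled. Adcy7 stayed above 0, at 0.24 with total counts and 0.12 (-0.06 to 0.30) with spike-in totals. Adcy1, Adcy2, Adcy3, Adcy4, Adcy6, Adcy8 and Adcy9 were below 0 under TMM, total counts, spike-in totals and in the second quantification.

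**Figure D4:**
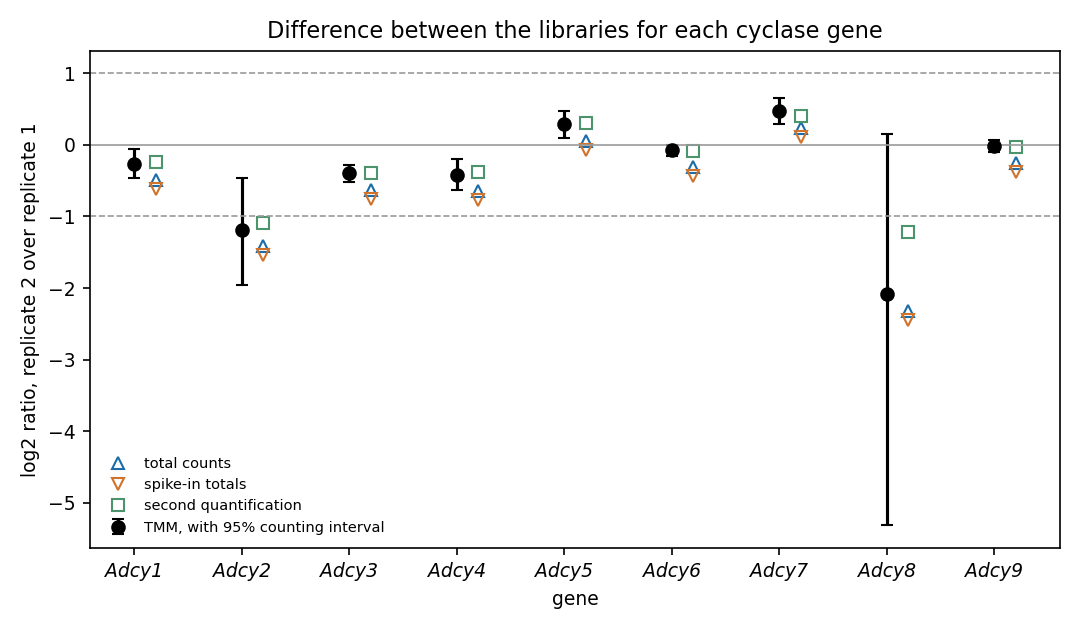
Log2 ratio of replicate 2 to replicate 1 (vertical axis) for each gene, with TMM scaling (black, 95% exact counting interval), total counts (blue), spike-in totals (orange) and the second quantification (green). Adcy2 lies past the dashed 2-fold line under each scaling, Adcy8 has the widest interval, and Adcy5 crosses 0 with spike-in totals.

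Marker genes of the gland and of other tissues also differed between the libraries. All 8 adrenal cortex markers and all 8 chromaffin markers were at 1 TPM or more in both libraries, and the cortex markers summed to 13078 TPM in replicate 1 and 7143 in replicate 2, each lower in replicate 2. Chromaffin markers summed to 1633 and 1135 TPM, with 7 of 8 ratios below 0 and a median of -0.28. All 6 skeletal muscle markers were at least 2-fold lower in replicate 2, with sums of 1095 and 1.77 TPM. All 6 liver markers were higher there by 2-fold or more, with sums of 25.8 and 18903 TPM. Macrophage markers summed to 87.5 and 89.9 TPM, with 5 of 6 ratios above 0 and a median of 0.45. White fat markers summed to 2335 and 1955 TPM, brown fat markers to 1171 and 804, endothelial markers to 275 and 218, and Schwann and glial markers to 13.3 and 22.2. None of 6 kidney markers reached 1 TPM, and Umod, Slc12a1 and Slc34a1 were at 0 in a library. The part of these cells and tissues in the cyclase levels and ratios was not tested. Adcy6, Adcy9 and Adcy3 led in each library taken alone, and fat markers were read in both. The order within a library does not tell which cells or tissues its cyclase reads came from.

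The genes that act on cyclases were read from 9 lists with 80 genes, and 45 of them reached 1 TPM in each library. Of nuclear protein-coding genes 54.1% reached it, and of all annotated genes 23.6%. The counts for each list below are to be read beside these shares. Gnas, which encodes the stimulatory alpha subunit, was at 995 and 679 TPM, or 15.8 and 13.6 times the sum of the 9 cyclases. The locus also gives rise to other imprinted transcripts that carry the same symbol. Gnal, the alpha subunit of olfactory neurons, was at 0.31 and 0.25 TPM.

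RNA for inhibitory inputs was read as well. Bulk tissue does not tell whether the receptor transcripts came from the cells that held the cyclases. All 5 inhibitory alpha subunits reached 1 TPM in both libraries, led by Gnai2 at 74.6 and 63.7 TPM and Gnai3 at 48.5 and 36.4. Of the 13 Gi-coupled receptors only Adora1, an adenosine receptor, at 39.7 and 36.4 TPM, and Ptger3, a prostaglandin E2 receptor, at 6.15 and 5.81, reached that level in both. All 5 beta subunits did, led by Gnb2 at 170.5 and 139.4 TPM and Gnb1 at 134.6 and 100.7, and 8 of 10 gamma subunits, led by Gng5 at 79.3 and 71.2 and Gng12 at 25.6 and 22.96.

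On the stimulatory side, 6 of 21 Gs-coupled receptors and partners reached 1 TPM in both. Mrap, the accessory protein of the ACTH receptor, was at 165.1 and 78.6 TPM, and Mc2r, the receptor itself, at 93.8 and 60.8. Both were above the summed cyclases in each library. Of 11 calcium sensors and kinases 9 reached the level, among them the calmodulin gene Calm2 at 137.1 and 109.4 TPM. Of 12 scaffolds and regulators 9 did, led by Rgs2, whose product restrains G protein signalling, at 110.5 and 70.0 TPM, and Cap1, a cyclase-associated actin regulator, at 42.7 and 35.6. Adcy10, the soluble cyclase that answers to bicarbonate, was at 0.44 and 0.38 TPM, close to Adcy2 in replicate 1 and above it in replicate 2.

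Of the 73 genes of these lists that could be compared between libraries, replicate 2 was higher by 2-fold or more for 3 and lower for 6, where 10.2% of all genes tested were higher and 3.93% lower. The receptor genes Gcgr, Vipr1 and Chrm2 were the 3 that were higher, and Drd4, Npy1r, Adora2b, Gipr, Camk2a and Cap2 the 6 that were lower, all named after their values were seen. Some rest on few counts. Chrm2 had 4 and 8 counts, with a log2 interval of -0.66 to 3.42, and Adora2b 13 and 5 (-2.98 to 0.44), both including 0. Gipr had 14 and 3 counts (-4.42 to -0.14). Gcgr, the glucagon receptor, read 0.63 TPM in replicate 1 and 30.91 in replicate 2, the library with the high liver markers.

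**Figure D5:**
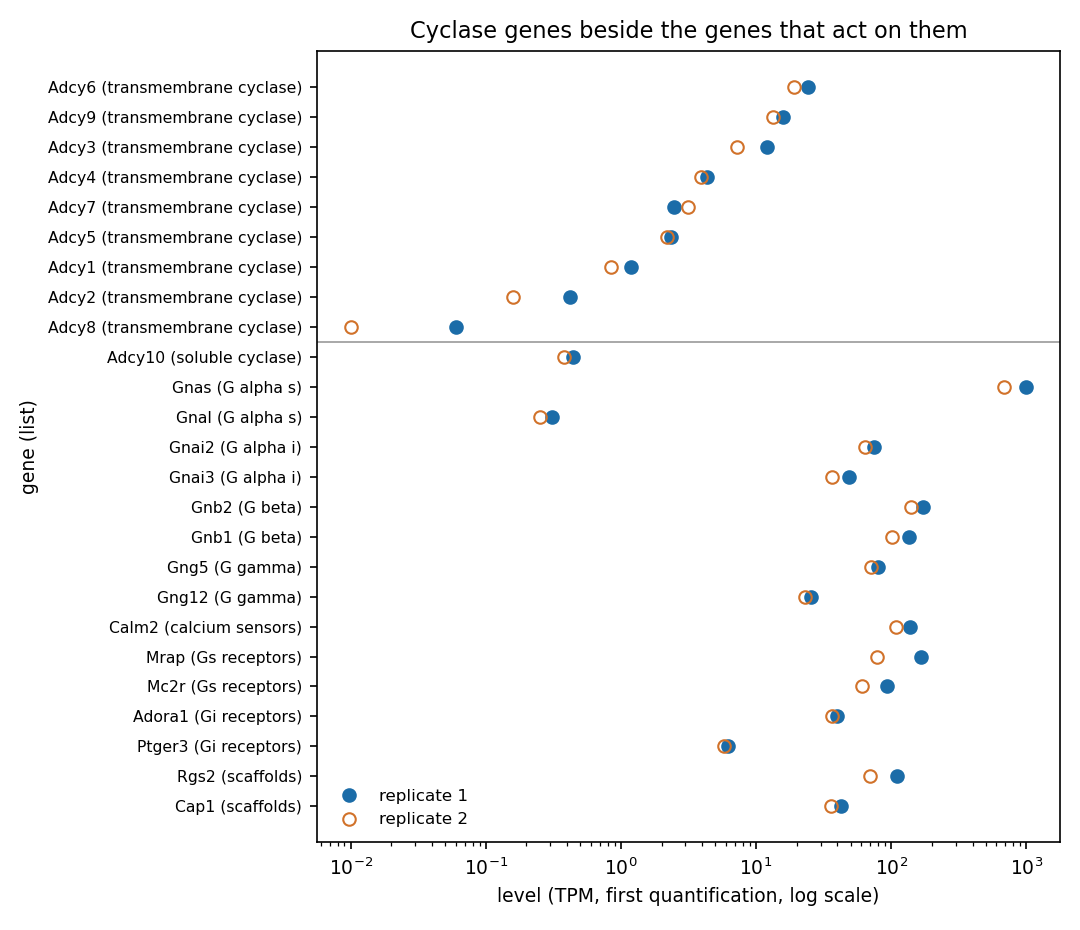
TPM (horizontal axis, log scale) of the 9 cyclase genes, above the line, and of the genes named from each list that acts on them, below it, in replicate 1 (filled) and replicate 2 (open). Gnas lies far above every cyclase, and Gnai2, Gnb2, Gnb1, Calm2, Mrap and Mc2r lie above Adcy6, the highest cyclase.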

How the data were processed

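Both quantifications used mm10 and annotation M21, per the authors' deposited text files. The aligner, quantifiers, read length and strand setting were not given in the sources used here. The first quantification holds the authors' expected counts, TPM and the percent of gene TPM on each transcript, per the file headers, and a deposited credibility interval of unstated level. For the second, the authors deposited estimated counts and TPM of transcripts, which were summed by gene. The deposited TPM is relative to all entries together. Depth was 35283841 and 35156690.03 expected counts in replicates 1 and 2, with 34987819 and 34835147 of them assigned to annotated genes. Reads from the CAST/EiJ parent were not separated, and any effect of mapping them to mm10 was not tested.

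Members are given as the mean ± SD of 2 libraries. Expected counts were rounded, genes with at least 10 counts in total were scaled by TMM (edgeR 4.0.16, factors 1.08 and 0.923), and intervals are 95% Clopper-Pearson (scipy 1.17.1). The interval code was tested on simulated data. DESeq2 1.42.0 size factors, total counts and spike-in totals were alternatives. Markers of 10 cell types and tissues and 9 pathway lists were read. The text names all 9 members, the 2 highest of each list, and Gnas, Mc2r, Mrap and Adcy10; genes named after their values were seen are marked so, and not every gene chosen this way is reported here. The members and lists were chosen with earlier results of these data known. Proteins were not compared. Coding sequences were aligned in their place (biopython 1.88), and the printed window was placed by the codons of the catalytic motif in each reading frame.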

Additional observations from a re-analysis of the deposited data

How the results depend on the processing

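The summed TPM of the 9 genes was 56.4, and leaving out either library gave 49.94 to 62.95. The second quantification gave 91.2, and the cause was not tested. By construction the sum was larger, 166, relative to nuclear protein-coding genes alone and smaller, 41.2, over complete coding transcripts. The log2 lead of Adcy6 over Adcy9, 0.56, ran from 0.51 to 0.61 with a library left out. It was 0.20 over transcripts of at least 1000 bases, and turned to -0.47 over complete coding transcripts and -0.032 per kb of the longest coding transcript. These 3 alternatives were chosen after seeing the data. The number of genes at 1 TPM in both libraries, 6, was 6 or 7 under the alternatives run: 7 with replicate 1 alone, in the second quantification, relative to nuclear protein-coding genes and at a minimum of 0.5 TPM. The number at least 2-fold different, 2, was the same under each scaling, without the count filter and in the second quantification; leaving out a library leaves no ratio.

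No paired analysis was possible because there was 1 group. With 2 libraries no test between groups exists, and an SD rests on 2 values. Depth limits Adcy8 and Adcy2, whose 10 and 2, and 59 and 22, counts leave wide intervals. Transcript shares rest on how each quantification splits shared reads.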
